A study of Oryza sativa with 32 samples.

Results

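MATE (multidrug and toxic compound extrusion) efflux transporters are a family of membrane proteins, and 47 of the 39049 rice loci that are not marked as transposable elements (non-TE loci) in the MSU release 7 annotation of Nipponbare were members of it. A locus was counted as a member when its representative gene model, the one transcript structure chosen to stand for the locus, was described as a MATE efflux protein and was not marked as a transposable element. The remaining 39002 non-TE loci served as the background. The annotation was the gene set against which the RNA-seq reads of the study were counted, so it sets which MATE transcripts could be told apart in the roots.

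The study asked how the transcription factor *ART1* contributes to differences in aluminum (Al) resistance between rice varieties. It used 32 root RNA-seq libraries from 4 genotypes, each treated with Al and kept in control solution, with 4 biological replicates for each of the 8 groups. The genotypes were AZU[IR64121], a near-isogenic line in the Azucena background, its parent Azucena (tropical japonica), IR64[AZU12.1], a near-isogenic line in the IR64 background, and its parent IR64 (indica). Seedlings grew for 5 days in control solution, 20 per genotype were then moved to 80 µM Al3+ activity for 4 hours, and whole roots were harvested. Both near-isogenic lines carry a piece of chromosome 12 of the other parent, and each background is represented by 1 line. The annotation holds 66338 gene models of 55986 loci, and 0 of its columns held values of a single library. The results below are therefore positions, lengths and marks of loci. Levels of MATE transcripts in these roots were not analysed here, and read depth has no bearing on the values. The annotation is a full list and not a sample, so the shares carry no sampling error and no test was run.

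MATE proteins export small molecules across membranes in exchange for protons or sodium ions. They were first recognised in bacteria as drug pumps, and in plants members of the family carry organic acids, hormones and secondary metabolites out of the cytoplasm. In roots, MATE proteins that release citrate are known for a role in Al resistance, because citrate binds Al3+ outside the root, and for loading citrate into the xylem, where it keeps iron mobile. *OsFRDL4* encodes such a citrate exporter of rice roots, and *FRDL2* is a related MATE gene. No other member carries a gene name in the sources used here.

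*OsFRDL4* (LOC_Os01g69010) and *FRDL2* (LOC_Os10g13940) both lay on the plus strand, each with 1 gene model and outside any cluster of MATE loci. *OsFRDL4* spanned 3271 bp on chromosome 1, from position 40093713 to 40096983. It was shorter than the median member, although longer than 66.6% of the other non-TE loci. Its nearest family member, LOC_Os01g56050, was 7.82 Mb away. *FRDL2* spanned 5852 bp on chromosome 10, from position 7574036 to 7579887, and was longer than 89.8% of the other non-TE loci. The nearest family member of *FRDL2* was LOC_Os10g11860, at a distance of 992065 bp. Both genes were described in the annotation as a "MATE efflux protein", a wording shared by 5 members in all. The other members with that wording were LOC_Os03g11734 (10941 bp), LOC_Os09g37610 (6459 bp) and LOC_Os12g01580 (4341 bp), so the 5 lay on 5 chromosomes and none of them stood in a tandem run. The remaining 42 members were described as a "MATE efflux family protein". The median length was 5852 bp over the 5 loci and 4014.5 bp over the 42. The wording separates groups of the annotation and is not evidence of shared substrate.

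The other Al resistance genes that the study names lay at least 801067 bp from any member. *ART1* (LOC_Os12g07280), which encodes a C2H2 zinc finger transcription factor, shared chromosome 12 with 6 members. The nearest of them, LOC_Os12g03260, was 2.32 Mb away. Between that member and *ART1* (3580032 to 3582974) lay LOC_Os12g06050 (2809552 to 2810103). It was described only as "MATE, putative" and so was not counted as a member in these distances. *STAR1*, the nucleotide-binding subunit of an ABC transporter of root cells, was the closest to a member, at 801067 bp from LOC_Os06g49310 on chromosome 6. *STAR2*, the membrane subunit of the same transporter, was on chromosome 5 at 26.6 Mb from LOC_Os05g48040. *ALS1*, a half-size ABC transporter of the vacuole membrane, was on chromosome 3 at 4.11 Mb from LOC_Os03g62270. *Nrat1*, a plasma membrane Al uptake transporter described in the annotation as an Nramp metal transporter, lay 33.6 Mb from LOC_Os02g57570, the only member on chromosome 2. *OsCDT3* lay on chromosome 1, 13.4 Mb from LOC_Os01g31980 and on the same chromosome as *OsFRDL4*.

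MATE loci were found on all 12 chromosomes, with between 1 and 10 on each. Chromosome 3 held 10, chromosome 10 held 8 and chromosome 12 held 6, which together made up more of the family than the other 9 chromosomes. Had the 47 loci been spread like all non-TE loci, chromosome 10 would have held 2.77, chromosome 12 would have held 2.95 and chromosome 3 would have held 5.3. Chromosome 10 was thus at 2.89 times its even share, with 3.49 MATE loci per 1000 non-TE loci, against 2.04 times on chromosome 12 and 1.89 times on chromosome 3. At the other end, chromosomes 2 and 5 held 1 member each, at 0.2 and 0.265 times the even share. Counting each tandem run once left 39 units. Chromosomes 10 and 3 then stood at 2.61 and 1.82 times the even share and chromosome 12 at 1.23 times, below chromosome 8, which holds no run and stood at 1.45 times (1.2 times with every locus counted). By the MATE efflux wording, most of the excess on chromosome 12 was thus made up of loci that stand beside one another. On chromosomes 3 and 10 an excess remained. Chromosome 12 also held LOC_Os12g06050, LOC_Os12g25160 and LOC_Os12g36660, which carry MATE in other words and were not counted. Each lay at least 261 loci from any member, and shares that include them were not computed, so the contrast rests on the wording used.

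**Figure D1:**
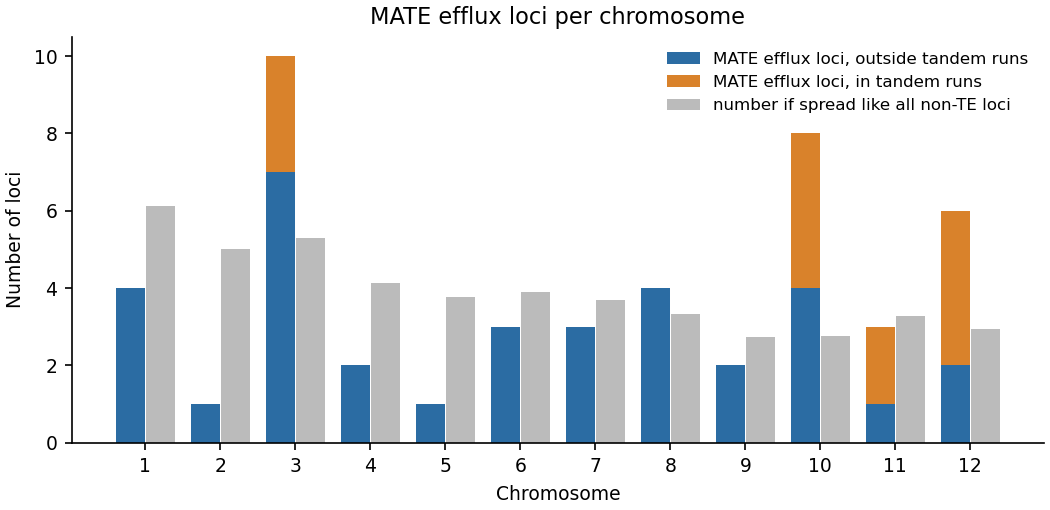
Number of MATE efflux loci on each of the 12 rice chromosomes (left bars, loci in tandem runs in orange and loci outside them in blue), beside the number if the 47 loci were spread like all non-TE loci (right bars, grey). Chromosomes 3, 10 and 12 hold 10, 8 and 6 loci, and tandem runs lie on chromosomes 3, 10, 11 and 12.

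Members on the other chromosomes were mostly isolated. On chromosome 1, LOC_Os01g31980 (8047 bp), LOC_Os01g49120 (3933 bp), LOC_Os01g56050 (2094 bp) and *OsFRDL4* were each at least 650 loci apart. Chromosome 2 held LOC_Os02g57570 (1171 bp) and chromosome 5 held LOC_Os05g48040 (3948 bp). LOC_Os02g57570 was followed at 387 bp, on the same strand, by LOC_Os02g57580, described as an anthocyanin permease. That wording was not counted as MATE, and whether the 2 loci are related in sequence was not analysed here. Chromosome 4 held LOC_Os04g30490 (3931 bp) and LOC_Os04g48290 (3940 bp), which differed little in length but lay 1587 loci apart. On chromosome 6, LOC_Os06g29844 (6510 bp) and LOC_Os06g29994 (12352 bp) were 13 loci apart on the same strand, and LOC_Os06g49310 (8151 bp) was distant from both. Chromosome 7 held LOC_Os07g01750 (4686 bp) near one end, LOC_Os07g31884 (6914 bp) and LOC_Os07g33310 (3216 bp). Chromosome 8 held LOC_Os08g37432 (4892 bp), LOC_Os08g43250 (1770 bp), LOC_Os08g43654 (5866 bp) and LOC_Os08g44870 (2051 bp), with at least 38 loci from one to the next. LOC_Os09g29284 (7481 bp) and LOC_Os09g37610 made up the family on chromosome 9.

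The chromosomes with most members held both isolated and clustered loci. Outside the runs, chromosome 3 had LOC_Os03g08900 (9295 bp), LOC_Os03g11734, LOC_Os03g12790 (2594 bp), LOC_Os03g37640 (7393 bp), LOC_Os03g42830 (6125 bp), LOC_Os03g62270 (3548 bp) and LOC_Os03g64150 (1597 bp). Chromosome 10 had LOC_Os10g11354 (6043 bp), LOC_Os10g11860 (4368 bp), *FRDL2* and LOC_Os10g37920 (1620 bp). On chromosome 11, LOC_Os11g03240 (3593 bp) was 23 loci before the run. Chromosome 12, which carries *ART1*, had LOC_Os12g01580 (350766 to 355106) and the 4 loci of its run within the first 1256056 bp, and LOC_Os12g42130 (26120373 to 26122925, 2553 bp) beyond *ART1*, in the last stretch of the chromosome.

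Tandem runs, in which each member was at most 5 loci from the next, held 13 of the 47 MATE loci (27.7%) in 5 runs. Among other non-TE loci with a specific description, 14.2% had a non-TE locus of identical description within 5 loci. Read in the same way by family, the share was 27.6% for the 58 ABC transporter loci, 57.1% for the 350 cytochrome P450 loci and 33.9% for the 555 loci described as another kind of transporter. The clustering of MATE loci was thus at the level of ABC transporters and below that of P450 enzymes, whose longest run held 14 loci, against 4 for MATE loci and 3 for ABC transporters. The 14.2% asks for identical wording, whereas the family shares accept any wording that holds the family name, and the comparison is descriptive.

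The largest run by number was on chromosome 12 (1220954 to 1256056, 35.1 kb), with LOC_Os12g03200 (4081 bp), LOC_Os12g03230 (1836 bp), LOC_Os12g03240 (440 bp) and LOC_Os12g03260 (4906 bp), all on the minus strand. Their lengths differed widely, and the shortest member of the whole family stood directly beside LOC_Os12g03230, 1340 bp from it. Between the 4 loci lay 2 loci marked as transposable elements and 1 other locus. The widest run was on chromosome 3 (20725388 to 20799805, 74.4 kb), with LOC_Os03g37411 (21931 bp), LOC_Os03g37470 (9984 bp) and LOC_Os03g37490 (6753 bp), again all on the minus strand. It held the longest member of the family and 3 transposable element loci, and MATE loci covered 52% of its span. LOC_Os03g37640 stood 10 places further along on the same strand, too far for the rule.

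On chromosome 11 the run (1335133 to 1352397, 17.3 kb) consisted of LOC_Os11g03484 (9864 bp) and LOC_Os11g03500 (4360 bp) with no locus between them, and they covered 82.4% of the span. Chromosome 10 had a pair of runs. In the first (10231564 to 10252562, 21 kb), LOC_Os10g20350 (2876 bp) and LOC_Os10g20390 (3278 bp) stood on the minus strand with 3 loci between them. In the second (10293210 to 10304395, 11.2 kb), LOC_Os10g20450 (2704 bp) on the plus strand faced LOC_Os10g20470 (2821 bp) on the minus one. These runs were 6 loci and 40647 bp apart, 1 place beyond the rule, so whether they count as 1 run or as a pair rests on the limit chosen. The 4 chromosome 10 loci were close in length, from 2704 to 3278 bp, unlike the members of the chromosome 3 and chromosome 12 runs.

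**Figure D2:**
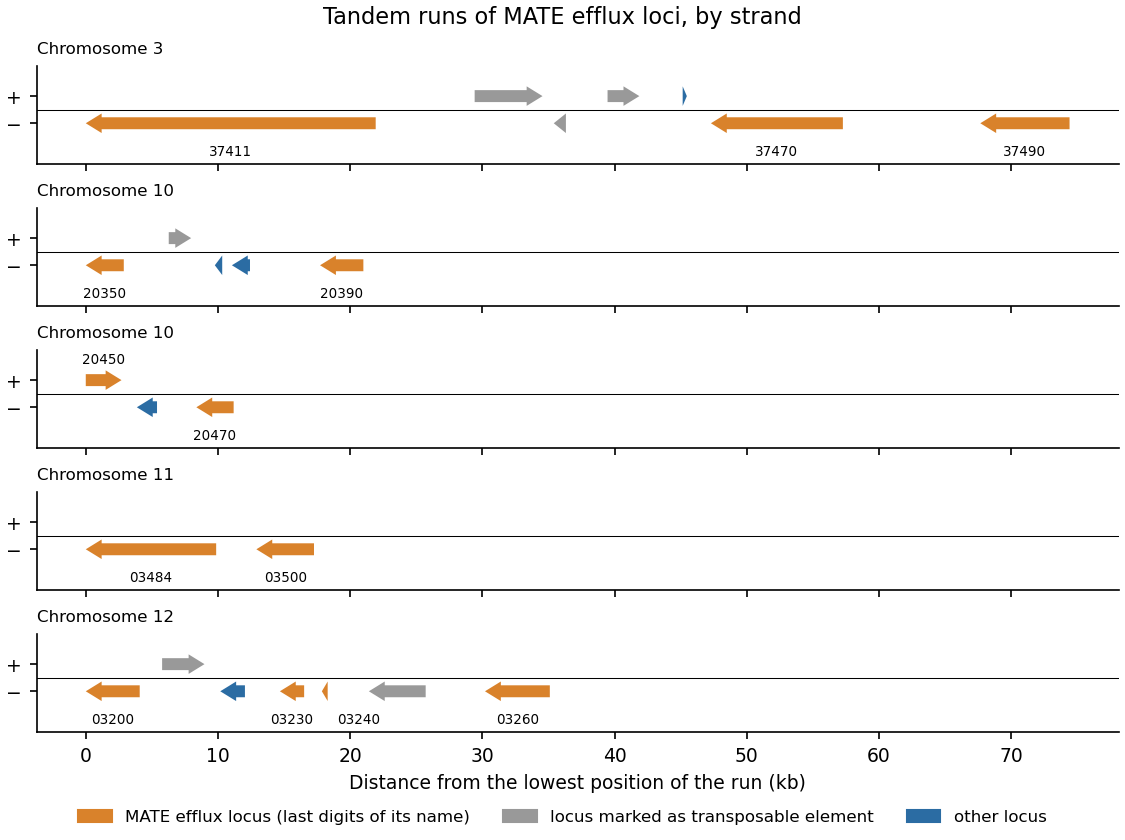
The 5 tandem runs of MATE efflux loci drawn to scale, with distance in kb from the lowest position of each run on the horizontal axis, loci of the plus strand above the line and of the minus strand below it, and arrows pointing in the direction of transcription. MATE loci are orange, transposable element loci grey and other loci blue, and 12 of the 13 MATE loci point the same way, on the minus strand.

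Neighbours within runs mostly shared a strand, as did those of P450 loci and of other transporters. Pairs of ABC transporter loci were nearer the share of all non-TE loci. Of the 8 neighbouring pairs of MATE loci in runs, 7 had the same strand (87.5%), against 85.8% of 141 such pairs of P450 loci, 75.9% of 112 pairs of other transporters and 55.6% of 9 pairs of ABC transporters. Over all non-TE loci, 52% had the same strand as the next non-TE locus. Of the 13 MATE loci in runs, 12 were on the minus strand, but these came from only 5 runs. Outside runs, 21 loci had the plus orientation and 13 the minus orientation. Over the family 22 loci (46.8%) were on the plus strand, against 50.6% of other non-TE loci. With each run counted once the share was 56.4%, so the side on which the family fell of an even split depended on how runs were counted.

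The runs on chromosomes 11 and 12 had matching surroundings. Of the 10 non-TE loci before each run, 6 had a counterpart on the other chromosome with the same description, strand and order, and 5 of these had a specific description. After the runs the numbers were 8 and 5. A bifunctional aspartokinase/homoserine dehydrogenase, an enzyme of amino acid synthesis, stood directly before both runs (LOC_Os11g03470 and LOC_Os12g03190), and an ELMO/CED-12 family locus followed both (LOC_Os11g03530 and LOC_Os12g03270). It was the next locus on chromosome 12, whereas on chromosome 11 it came after 2 loci without a counterpart there, LOC_Os11g03510, described as a 1-aminocyclopropane-1-carboxylate oxidase, an enzyme of ethylene synthesis, and LOC_Os11g03520, described as a GDSL-like lipase. Between the aspartokinase and ELMO/CED-12 loci, chromosome 11 had 2 MATE loci and chromosome 12 had 4. Sequence identity between the members was not analysed here, so how far reads of one run could be assigned to the other is not known from these values.

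MATE loci were longer than most rice loci. Their median length, measured over all gene models of a locus, was 4341 bp (quartiles 2848.5 and 6631.5 bp), against 2184 bp (980 and 3950 bp) for other non-TE loci, a ratio of 1.99. Of the 47, 39 were above the median of the other loci and 25 were above their upper quartile. Against the other transporters, with a median of 3770 bp, the ratio was 1.15, and ABC transporter loci were longer, with a median of 6039 bp. P450 loci had a median of 2190.5 bp. MATE loci therefore stood among transporter loci in length rather than apart from them. Members in runs had a median of 4081 bp and members outside runs a median of 4354.5 bp.

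Lengths ranged from 440 to 21931 bp within the family. The longest were LOC_Os03g37411 (21931 bp), LOC_Os06g29994 (12352 bp) and LOC_Os03g11734 (10941 bp), longer than 99.9%, 99.1% and 98.6% of other non-TE loci. These were the 3 members over 10 kb (6.38%), against 1.91% of other non-TE loci. The share was higher for ABC transporter loci, at 8.62%, and lower for other transporters (2.52%) and P450 loci (1.43%). Of the 14 other transporters over 10 kb, 5 were ABC transporter loci. For LOC_Os03g11734 the length came from its alternative models, since its representative model spanned 4953 bp. The shortest were LOC_Os12g03240 (440 bp), LOC_Os02g57570 (1171 bp) and LOC_Os03g64150 (1597 bp), and 8.11%, 29.9% and 39.1% of other non-TE loci were shorter than these. LOC_Os12g03240 was the only member under 1 kb, at 440 bp. Lengths include introns, and exon structure was not analysed here.

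**Figure D3:**
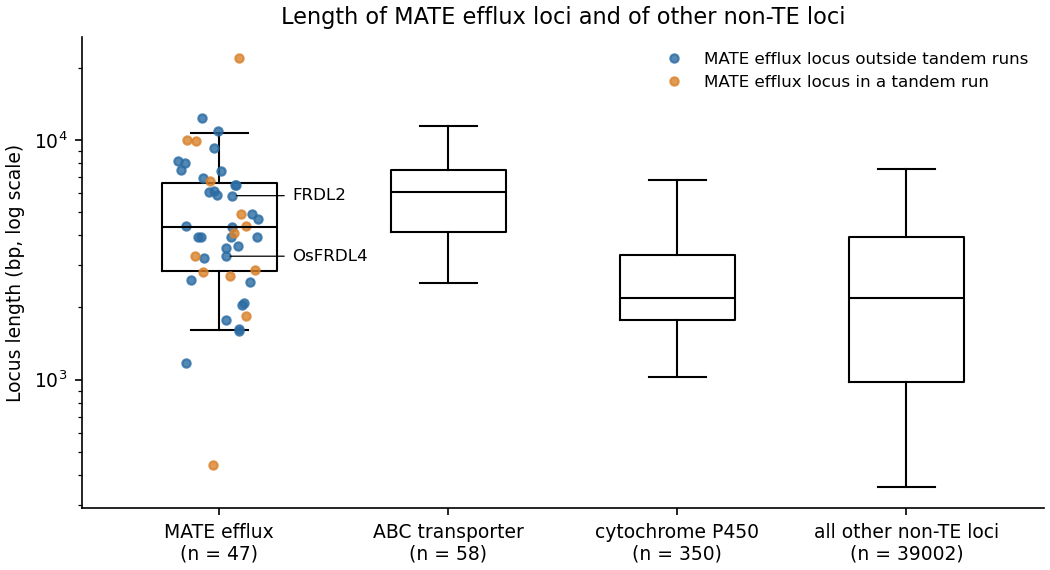
Locus length in bp on a log scale for the 47 MATE efflux loci (points, orange in tandem runs and blue outside them) and as boxes for MATE, ABC transporter, cytochrome P450 and all other non-TE loci (line, median; box, quartiles; whiskers, 5th and 95th percentiles). The MATE median of 4341 bp lies between the ABC transporter median of 6039 bp and the median of all other non-TE loci, 2184 bp, and single members reach 440 and 21931 bp.

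All 47 MATE loci (100%) carried the annotation's mark as expressed, against 93.5% of other non-TE loci. The mark was also on all 58 ABC transporter loci, 349 of 350 P450 loci and 554 of 555 loci of other transporters. It was equal to the word "expressed" in the description at every locus, with 0 exceptions. It records transcript evidence collected for the annotation and says nothing about these roots or about Al.

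Alternative gene models were annotated for 10 members (21.3%), against 16% of other non-TE loci, and the share was 22.9% for other transporters, 19% for ABC transporters and 8.57% for P450 loci. The 47 loci had 62 gene models. Of the members, 37 had 1 model, 6 had 2, 3 had 3 and 1 had 4. LOC_Os05g48040 had 4, and LOC_Os03g11734, LOC_Os08g44870 and LOC_Os12g03200 had 3 each. The members with 2 were LOC_Os01g31980, LOC_Os03g37640, LOC_Os06g49310, LOC_Os08g37432, LOC_Os10g20350 and LOC_Os12g01580. More than 1 model was annotated for 2 of the 13 loci in runs (15.4%) and 8 of the 34 outside runs (23.5%). The share in runs was thus near the 16% of other non-TE loci, and it rests on few loci.

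The ends of alternative models were near the background. Of 15 alternative models of MATE loci, 10 ended within 100 bp of the representative model on both sides (66.7%), against 63.7% of the 10002 alternative models of other non-TE loci. A 5′ end, the side of the promoter, more than 100 bp away was annotated for 3 models (20%), against 19%. Over the 231 alternative models of other transporters, these shares were 59.3% for both sides and 31.2% for the 5′ end. In LOC_Os03g11734, models 1 and 3 began 5983 and 5987 bp upstream of the representative model. In LOC_Os08g37432, model 2 began 2577 bp inside it. The 3′ end differed by more than 100 bp in LOC_Os08g44870, where model 2 ended 416 bp inside, and in LOC_Os10g20350, where it ended 238 bp inside. *OsFRDL4* and *FRDL2* had no alternative model.

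The 2 kb upstream of a gene is where promoter elements are usually sought, and for 32 of the 47 MATE loci this window was free of any other annotated locus. It was reached by another locus for 15 (31.9%), against 34.9% of other non-TE loci. Where it was reached, between 109 and 1880 bp of it were covered, with a median of 465 bp. The nearest upstream locus was a transposable element at 3 of the 15 and another kind of locus at 12. Over the family the median distance to the nearest upstream locus was 3115 bp, against 2983 bp for other non-TE loci. With a window of 1000 bp the share reached was 10.6% for MATE loci, against 16.7% for other non-TE loci.

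The window of *OsFRDL4* was free, and its nearest upstream locus, the retrotransposon locus LOC_Os01g69000 on the same strand, was 7963 bp away. These values are those of Nipponbare. The study reports an insertion in the *OsFRDL4* promoter that Nipponbare and Azucena carry and IR64 lacks, so they need not hold for IR64. The window of *FRDL2* was also free, with the retrotransposon locus LOC_Os10g13930 on the opposite strand at 2841 bp. Distances within the family ranged widely. LOC_Os12g01580 began 120 bp from LOC_Os12g01574, an expressed protein on the opposite strand, so the pair pointed away from each other. LOC_Os12g42130 began 327 bp after a PPR repeat locus, LOC_Os12g42120, on its own strand. At the other end, 6 members had more than 10 kb, and LOC_Os04g48290 had the longest distance, 15684 bp. In the chromosome 12 run, the window of LOC_Os12g03230 was reached by its own neighbour LOC_Os12g03240, 440 bp of which lay in it. For LOC_Os03g11734 the distance from the representative model was 6621 bp, but only 634 bp from its longest models.

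**Figure D4:**
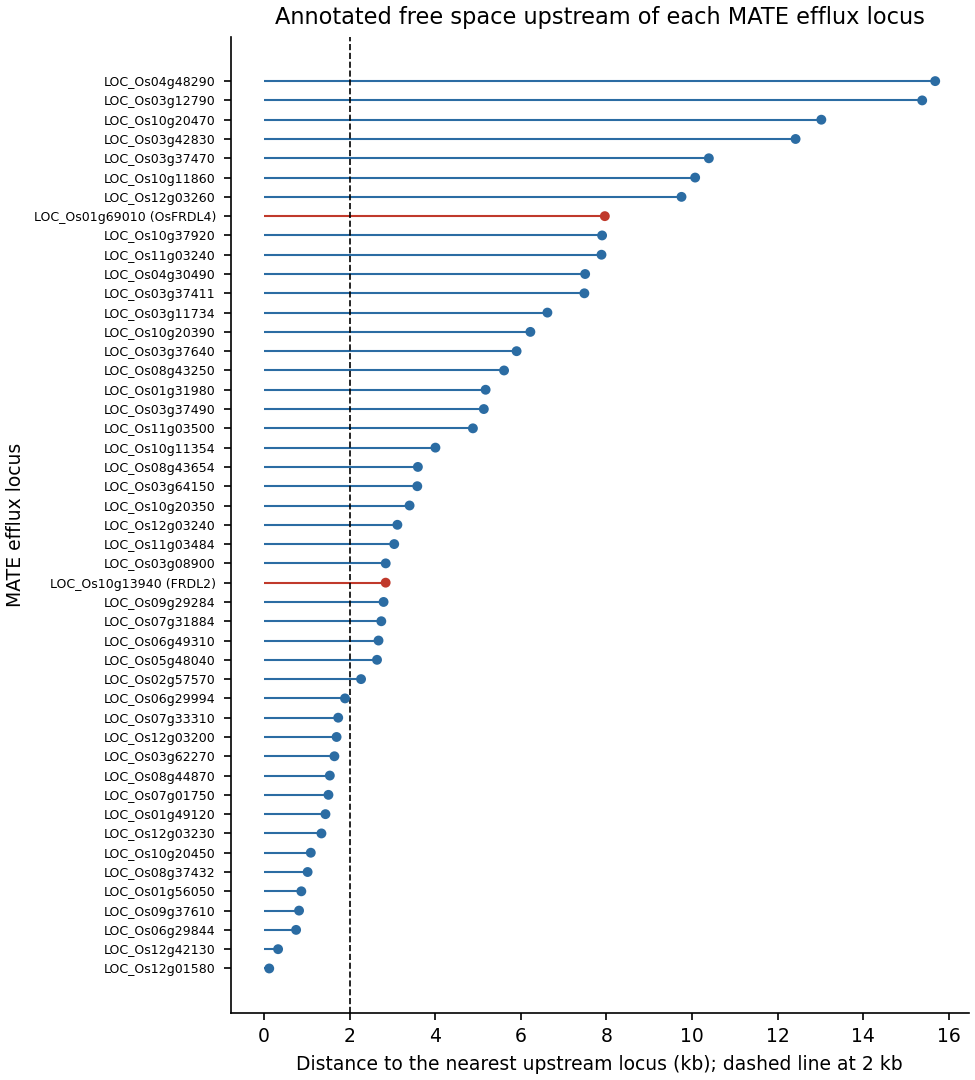
Distance in kb from the start of the representative gene model of each of the 47 MATE efflux loci to the nearest annotated locus upstream, sorted, with *OsFRDL4* and *FRDL2* in red and a dashed line at 2 kb. The distance is shorter than 2 kb for 15 loci and longer for 32, with *OsFRDL4* at 7963 bp and *FRDL2* at 2841 bp.

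Positions were shared with another locus by 3 members (6.38%), against 4.08% of other non-TE loci. The share was 8.62% for ABC transporter loci, 6.31% for other transporters and 3.14% for P450 loci. For each of the 3 members the partner was on the opposite strand. LOC_Os01g49120 shared 719 bp with LOC_Os01g49110, a prenyltransferase, an enzyme class that transfers isoprenoid chains. LOC_Os06g49310 shared 2353 bp with LOC_Os06g49320, a glycosyltransferase, which attaches sugars to acceptor molecules. LOC_Os09g37610 shared 1538 bp with LOC_Os09g37620, a flavin-containing monooxygenase, which oxidises small molecules. None of the 3 was in a run, and *OsFRDL4* and *FRDL2* were not among them. The libraries were made strand-specific, so reads from such partners can be told apart only where the counting used strand, which is not given in the sources used here.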

How the data were processed

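Root RNA-seq libraries of the study were strand-specific. Per the submitters' processing notes the reads were handled with Trimmomatic, Bowtie and HISAT, and reads were counted on MSU release 7. The deposited file analysed here is that annotation, with positions (start and stop in bp), marks and descriptions. It holds 0 columns of library values, so the samples entered no comparison and no count test was run. A locus was taken as the whole stretch covered by its gene models. Strand, description and the upstream window of 2000 bp came from the representative model. Tandem runs counted all loci, transposable elements included, with the next member at most 5 places along the chromosome. The run finder was tested on simulated data. The genes named were *OsFRDL4*, *FRDL2*, members of runs, the 3 longest and 3 shortest members, those with most gene models, those sharing positions with another locus, those on the chromosome of *ART1*, and the other Al resistance genes named by the study. Members at the edges of the upstream distances were named after their values were seen, and the rest are given by position or length only. The members and lists were chosen with earlier results of these data known. None of the 47 members matched the RefSeq gene table, which is of another assembly, and no sequence was used. Tables were read with pandas 2.3.3 and numpy 2.4.6 under Python 3.11.15, and figures were drawn with matplotlib 3.10.9.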

Additional observations from a re-analysis of the deposited data

How the results depend on the processing

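Of 50 values recomputed under alternatives, 44 stayed within the limits set for them and 6 moved. The 44 is not a measure of robustness, because some alternatives could not move a value. All 47 members were marked as expressed, so keeping expressed loci only left the MATE values as they were. A further 24 of the 50 were values of single chromosomes, for which the limits were wide. The limit was 1.5 times for a count and the 95% binomial interval for a share or median. That interval is narrow for the many other loci and wide for a chromosome with few members. It served only as a yardstick for the size of a change, since the annotation is a full list. It also takes loci as independent, which those in runs are not. Chromosome 12 therefore stayed within its limit, although it was at 1.23 times the even share with 1 locus per run, against 2.04 times with every locus. With adjacent loci only, 6 MATE loci in 3 runs remained, against 13 in 5. Counted within 10 loci there were 14 in 4 runs, and within 50 kb or without transposable element loci 13 in 4. A 1000-bp window was reached at 10.6% of MATE loci, against 31.9% with 2000 bp, and the other non-TE loci had 16.7% with 1000 bp and 34.9% with 2000 bp. The median length of other loci was 2348 bp over those marked as expressed and 3770 bp over transporters, against 2184 bp. The share of other loci with more than 1 gene model was 17.1% over expressed loci, against 16%. Of the 50, 17 came from alternatives chosen after seeing the data. With MATE in any wording there were 56 loci, of which 15 stood in 6 runs. No paired analysis was possible because the annotation holds no values per library. The positions are those of Nipponbare, and copies present or absent in Azucena or IR64 were not analysed here. Family membership rests on the wording of the annotation.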

Other observations

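A further 9 non-TE loci carried MATE in other words. Of these, 6 were described as a "MATE domain containing protein", and the largest were LOC_Os02g02980 (7443 bp, 2 gene models) and LOC_Os06g29950 (5214 bp). LOC_Os06g29950 lay on the plus strand, 3 loci before LOC_Os06g29994, between the pair of plus-strand members on chromosome 6. The others with this wording were LOC_Os12g36660 (1498 bp), LOC_Os02g45380 (1851 bp), LOC_Os06g36330 (1707 bp) and LOC_Os09g35600 (1626 bp). The remaining 3, described only as "MATE, putative", were short: LOC_Os12g06050 had 552 bp, LOC_Os05g33910 had 548 bp and LOC_Os12g25160 had 534 bp. Chromosomes 2 and 5, with 1 MATE efflux locus each, thus held MATE-related loci that the family wording leaves out. So did chromosome 12, with LOC_Os12g06050, LOC_Os12g25160 and LOC_Os12g36660, all far from its run.

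Transposable elements were about as frequent around MATE loci as around other loci, with a median of 20% of the 20 nearest loci in each case. The number ranged from 0, at 6 members, to 13 at LOC_Os10g11354. At least 10 of the 20 were transposable elements at 6 members (12.8%), against 11.8% of other non-TE loci. LOC_Os10g11860 and LOC_Os01g31980 had 12, LOC_Os03g37470 had 11, and LOC_Os03g37490 and LOC_Os06g29994 had 10. The median was 30% for members in runs and 17.5% for members outside them. Members of a run share most of these nearest loci, so the first value rests on only 5 runs, and these differed. The share was 0% at both members of the chromosome 11 run and 20% at each member of the chromosome 12 run. It was 30% to 40% in the chromosome 10 runs and 45% to 55% in the chromosome 3 run. *OsFRDL4* had 4 of 20 and *FRDL2* had 8 of 20. Both direct neighbours of *OsFRDL4* were retrotransposon loci, LOC_Os01g69000 at 7963 bp before it and LOC_Os01g69020 at 670 bp after it. These loci were singled out after their values were seen.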
